A study of Rattus norvegicus with 30 samples.

Results

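The DNA replication and mitosis genes are a list of 41 genes, assembled by function and looked up by symbol among the 14217 named genes of a rat oligonucleotide array. The members were chosen with earlier results of these data known, so their shares beside those of all genes are descriptions and not tests. Probe sets for 39 of the 41 were found, and Rrm2 and Cdc6 were not found under these symbols. The 39 comprise 12 genes of the replication fork, 3 of nucleotide supply, 8 of origin licensing and the passage from G1 to S phase, 7 cyclins and kinases of G2 and mitosis, and 9 of the mitotic machinery. Where several probe sets matched a gene, that of the highest mean signal stands for it. Signals were floored at 16 and taken to log2, and a gene was tested if its signal exceeded the 40th percentile of the array on at least 5 arrays. That left 31 of the 39 genes among 11503 genes tested.

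The 30 arrays carry RNA of primary hepatocytes, the parenchymal cells that do most of the liver's metabolism, which were bought frozen and came from male Sprague Dawley rats. From day 3 of culture, on collagen under a Matrigel overlay, the wells received 0.8 µM or 20 µM of chlorpromazine hydrochloride, an antipsychotic of the phenothiazine class that can injure the liver by cholestasis, or only the vehicle, dimethyl sulfoxide at 1%. RNA was harvested after 24 or 48 h, which makes 6 groups (vehicle, 0.8 µM and 20 µM at each time) of 5 wells with 1 array each. Per the labels each well is its own culture, but which rat it came from is not named, so p-values here reflect variation among cultures and not among rats. Whether the treated wells held the same dimethyl sulfoxide content is not given in their titles.

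Cells copy their DNA once per division. Origins are loaded with the MCM helicase in G1 with the help of CDC6 and CDT1, cyclin E with CDK2 starts S phase, polymerases with PCNA copy the strands, and cyclin B with CDK1 then drives mitosis, which ends when CDC20 directs the destruction of cyclin B. Many of these genes are transcribed in waves, the S phase genes under E2F factors and the mitotic genes through CHR and CCAAT elements in their promoters. Hepatocytes of the adult liver are mostly out of the cycle and re-enter it after tissue loss, and in culture without strong growth factors few of them divide. In RNA from whole wells, fewer cells of a kind and less RNA per cell cannot be told apart.

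Promoter sequences of 32 of the 39 genes were found in RefSeq (rat build GRCr8), each as a window of 250 bases before and 50 bases after the start of the gene. They were searched on both strands for an E2F-type motif (TTTCGCGC, TTTGGCGC, TTTCCCGC or TTTGGCGG), for the CHR element (TTTGAA or TTTAAA) and for CCAAT. Windows of 5 genes are shown, each cut to the 170 bases before the start, because they belong to genes described below and carry each kind of motif or none. They run 5′ to 3′, with motif letters in capitals.
Pcna, chr3:139955821-139955990, minus strand: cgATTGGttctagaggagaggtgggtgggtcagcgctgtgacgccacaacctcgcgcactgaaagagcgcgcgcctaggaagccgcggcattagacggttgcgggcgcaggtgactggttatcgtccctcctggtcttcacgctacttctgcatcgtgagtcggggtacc
Tyms, chr9:120776084-120776253, minus strand: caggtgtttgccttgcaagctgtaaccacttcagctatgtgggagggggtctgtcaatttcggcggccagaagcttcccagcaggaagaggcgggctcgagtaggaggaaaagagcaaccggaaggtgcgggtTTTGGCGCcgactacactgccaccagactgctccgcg
Mcm6, chr13:42404353-42404522, minus strand: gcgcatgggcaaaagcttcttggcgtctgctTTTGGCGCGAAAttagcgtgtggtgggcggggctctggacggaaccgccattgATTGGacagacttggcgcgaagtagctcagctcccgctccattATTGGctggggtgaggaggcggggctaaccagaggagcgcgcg
Aurka, chr3:181560770-181560939, minus strand: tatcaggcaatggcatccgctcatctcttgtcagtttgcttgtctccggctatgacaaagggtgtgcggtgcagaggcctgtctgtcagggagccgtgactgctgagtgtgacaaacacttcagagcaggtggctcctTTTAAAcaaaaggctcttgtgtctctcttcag
Tk1, chr10:103544778-103544947, minus strand: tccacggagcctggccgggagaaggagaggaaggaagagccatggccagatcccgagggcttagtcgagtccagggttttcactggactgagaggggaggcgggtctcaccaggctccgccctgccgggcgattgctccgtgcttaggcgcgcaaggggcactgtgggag

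Capitals in the Tyms window mark an E2F-type match 37 bases before the start, and those in Mcm6 mark 2 overlapping E2F-type matches, the first base of which lies 139 bases before the start, followed by 2 CCAAT matches read on the other strand. In Aurka they mark a CHR match 32 bases before the start, and in Pcna a CCAAT match, also on the other strand. The shown stretch of Tk1 holds none of these letters. Over the 32 windows, 11 held an E2F-type match (34.4%), against 2.18% of all 33469 windows of that table and 4.15% of the 9597 windows of tested genes. The E2F-type letters were in 7 of 11 windows of replication fork genes (Lig1, Mcm2, Mcm3, Mcm5, Mcm6, Mcm7 and Tipin) and in 0 of 8 of the mitotic machinery. The CHR letters showed the reverse split, in 12 of the 13 windows of mitotic machinery and G2/M genes (all but that of Ska3) and in 2 of 11 of the fork. Of all 33469 windows 28.3% held CHR letters and 37.5% held CCAAT, which was in 18 of the 32. Among the windows of tested genes these shares were 18.6% and 37.9%. A match is a run of letters and not a bound site.

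Of the whole arrays, the following bears on these genes. All 17 hepatocyte markers found of the 18 listed (albumin, apolipoproteins, fibrinogen chains, Hnf4a and others) had group means above the mean 40th percentile of the arrays, a log2 signal of 8.09, in all 6 groups. Markers of other liver cells were also detected. Of 12 stellate or fibroblast markers 8 passed the filter, with Acta2, Col1a1, Col3a1, Des and Reln above their array's 40th percentile on all 30 arrays, and Lum, Lrat, Ngfr and Postn were so on 0. Of 8 endothelial markers 6 passed, with Kdr above on 30 arrays and Lyve1 on 29, and Vwf and Erg on 1 each. All 11 markers of Kupffer and immune cells found passed. Median signals of the 30 arrays ran from 380 to 449, and the log2 40th percentile from 7.93 to 8.23. Array numbers run through the groups in the same order in each set of 6, so an effect of place in the set and an effect of the group cannot be told apart.

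Of the 39 genes, 8 did not pass the filter, and 7 of these act in G2 or mitosis: Cdk1, the mitotic kinase, Ccna2 (cyclin A2), Plk1 (polo-like kinase), Bub1b of the spindle checkpoint, Top2a (topoisomerase II), Mki67, which codes for the division marker Ki-67, Ube2c, the ubiquitin-conjugating enzyme of the anaphase-promoting complex, and the licensing factor Cdt1. Cdk1 ran from 4.00, the floor, to 7.58 on the log2 scale over the 30 arrays, and Ki-67 from 4.00 to 7.30. Of these 8 genes, 6 exceeded the 40th percentile on no array, and Top2a and Ube2c did so on 1 array each. Signals this low were not read as an order between groups, and no change is given for them.

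The other end of the list was well above that background. The signals of 18 genes exceeded the 40th percentile on all 30 arrays: Pcna, Prim1, Rfc4, Lig1, Fen1, Tipin, Mcm3, Mcm5 and Mcm7 at the fork, Tyms, Tk1 and Rrm1 in nucleotide supply, E2f1, Ccnd1, Ccne2, Cdk2 and Cdk4 in G1 and S, and Kif11, a spindle motor. Another 8 tested genes had a mean over the arrays above 8.09, and 5 (Mcm4, Mcm6, Ccne1, Aurka and Ska3) had a mean below it. A gene of the last kind passed the filter through the arrays on which it was high, so counts are also given for the 26 brighter genes alone where they differ.

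**Figure D1:**
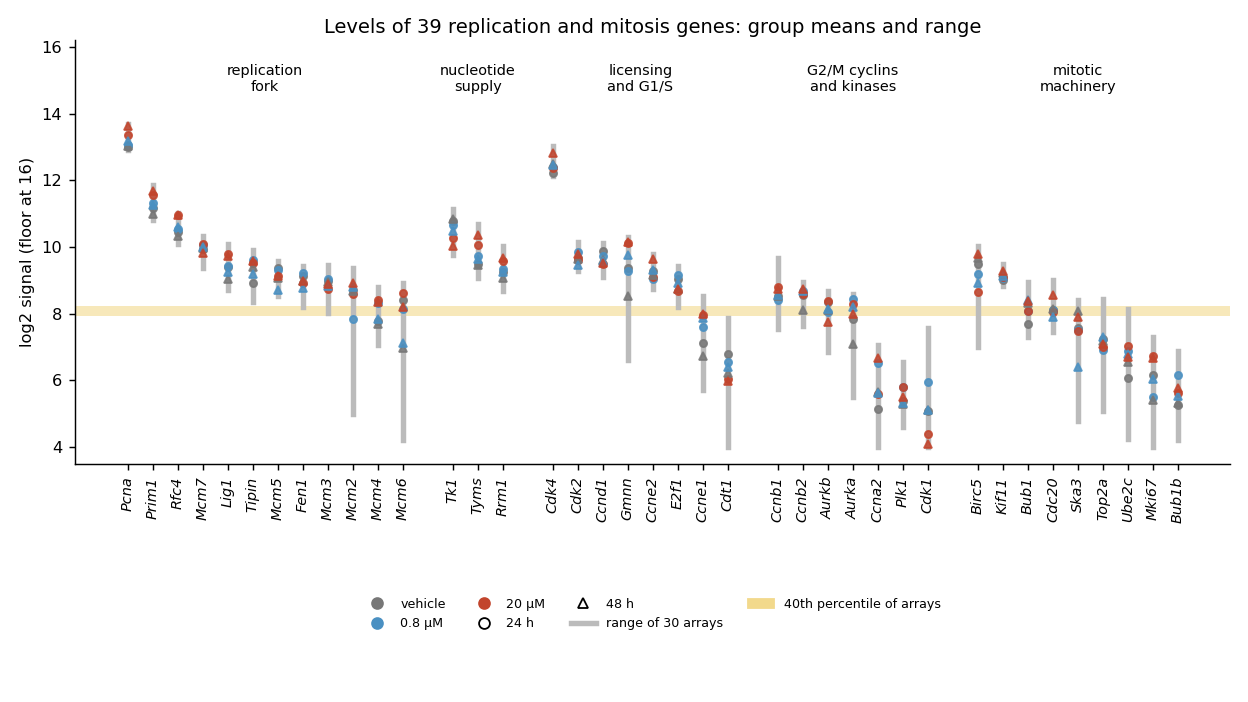
Log2 signal (floor at 16) of the 39 genes, grouped by role: points are means of 5 arrays for each dose (colour) and time (circle 24 h, triangle 48 h), grey lines the range of all 30 arrays, and the yellow band the 40th percentiles of the arrays (7.93 to 8.23). Most genes of the fork lie above the band, and 8 genes, among them Cdk1 and Mki67, lie below it in every group; levels of different probe sets cannot be set against each other.

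At 20 µM and 24 h, 5 genes of DNA synthesis were higher than in vehicle by 1.27- to 1.51-fold and 2 genes were lower. The 7 of 31 (22.6%) were about the share of all tested genes that changed in this comparison, 23.8%. Of the 31, 16.1% rose and 6.45% fell, against 13.4% and 10.4% of all genes. Among the 26 brighter genes 7 changed (26.9%, against 25.8% of all such genes), and arrays of the 2 groups did not overlap for 6 of the 31 (19.4%, against 16.8%). Differences were tested with limma, with 1 mean per group over all 30 arrays and Benjamini-Hochberg adjustment over the 11503 genes, and rose, fell and changed are used for an adjusted p under 0.05. Without vehicle replicate 2, whose title gives 2 h and whose time entry gives 24 h, 8 of the 31 changed, 6 higher and 2 lower.

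At 20 µM and 48 h the list moved mostly upwards: 14 genes rose, by 1.27- to 3.10-fold, and Tk1 alone fell. The 15 of 31 are 48.4%, against 35.2% of all tested genes. The rises are 45.2% of the 31 against 20.3% of all genes, and the fall is 3.23% against 14.9%. Among the 26 brighter genes 11 changed (42.3%, against 38% of all such genes), of which 10 rose (38.5% against 22%). The median log2 change of the 31 was 0.24, that of all tested genes 0.04. Arrays of the 2 groups did not overlap for 8 of the 31 (25.8%), which is the share among all genes (25.9%).

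**Figure D2:**
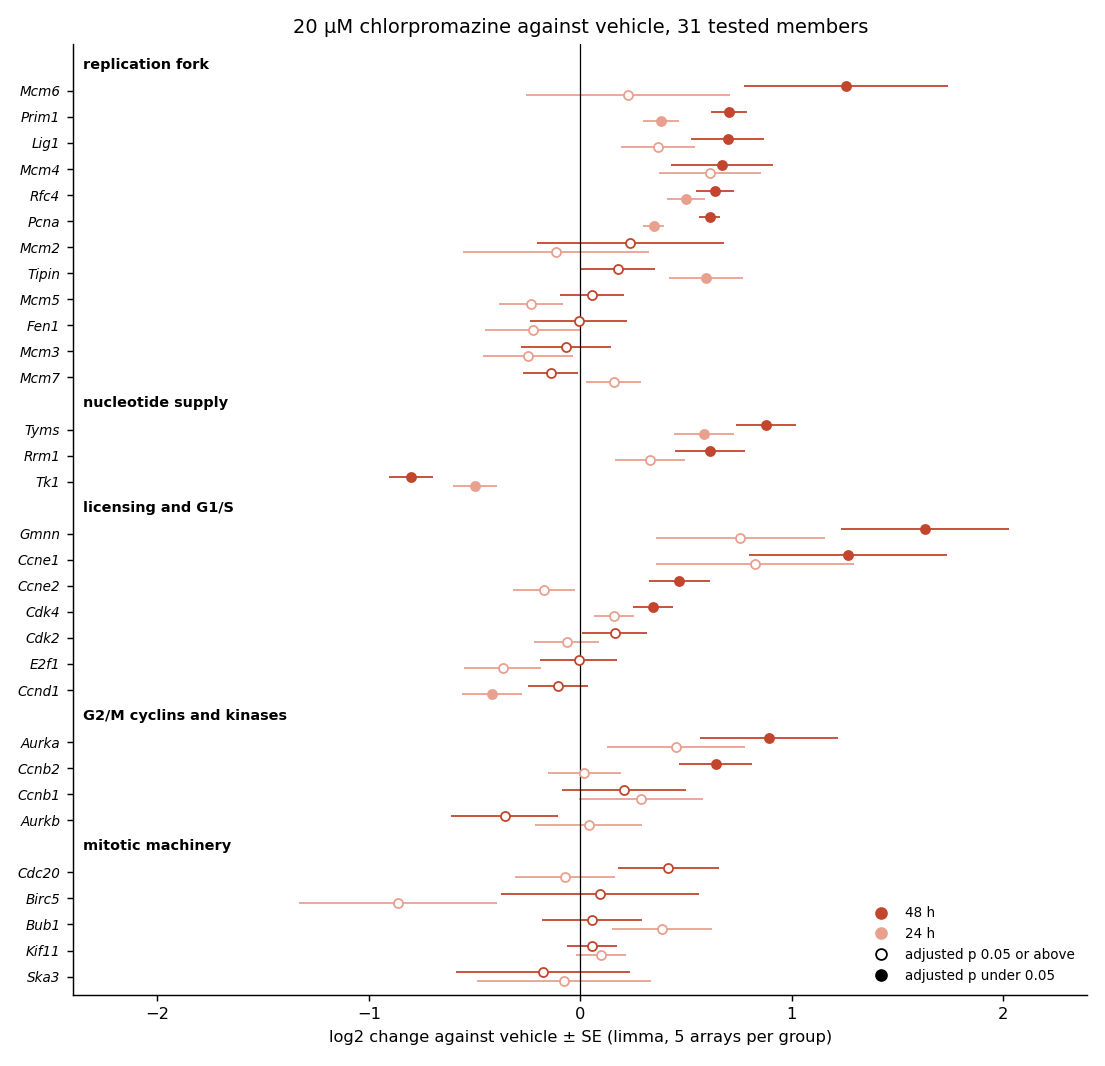
Log2 change at 20 µM against vehicle, with its SE (limma, 5 arrays per group), for the 31 tested genes by role; dark points are 48 h, light points 24 h, and filled points have an adjusted p under 0.05. At 48 h 14 filled points lie to the right of 0 and Tk1 (-0.80) to the left, while the 5 genes of the mitotic machinery have no filled point.

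At the replication fork, Pcna, the sliding clamp that holds the polymerase on DNA, had the tightest values. Its log2 signals at 24 h ran from 12.92 to 13.18 in the 5 vehicle arrays (mean 13.01) and were 13.30, 13.34, 13.40, 13.42 and 13.33 at 20 µM. At 48 h they were 13.08, 13.05, 12.92, 13.06 and 13.05 in vehicle and 13.64, 13.63, 13.64, 13.60 and 13.70 at 20 µM. The groups did not overlap at either time, and every 20 µM array at 48 h was above every one at 24 h. The log2 change was 0.35 ± 0.05 (SE) at 24 h (adjusted p = 2.97e-06, limma) and 0.61 ± 0.05 at 48 h (adjusted p = 1.55e-11), or 1.27- and 1.53-fold. Pcna was also the one gene of the 31 for which the 20 µM effect differed between the times (0.27 ± 0.07, adjusted p = 0.026; 4.21% of all genes).

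That difference of effects was lost when single arrays were left out: without vehicle replicate 4 at 24 h it was 0.22 (adjusted p = 0.059), without vehicle replicate 3 at 48 h 0.24 (0.058), without 20 µM replicate 1 at 24 h 0.25 (0.054) and without 20 µM replicate 5 at 48 h 0.25 (0.055). The rise of Pcna itself was kept in every such fit at both times.

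Prim1, the catalytic subunit of the primase that starts each new strand, rose at both times. At 48 h the 5 vehicle arrays ran from 10.89 to 11.11 (mean 10.99) and the 20 µM arrays read 11.57, 11.74, 11.71, 11.57 and 11.86, with no overlap. The change was 0.70 ± 0.08 (adjusted p = 4.69e-08, limma). At 24 h the arrays were also apart, at 11.16, 11.27, 11.20, 11.35 and 10.83 in vehicle and 11.41, 11.66, 11.50, 11.68 and 11.48 at 20 µM, and the change was 0.38 ± 0.08 (adjusted p = 0.000863). Rfc4, a subunit of the clamp loader that places PCNA on DNA, read 10.50, 10.20, 10.33, 10.10 and 10.46 in vehicle at 48 h and between 10.87 and 11.02 at 20 µM, again apart. At 24 h it ran from 10.11 to 10.66 in vehicle and from 10.84 to 11.02 at 20 µM. It rose by 0.50 ± 0.09 at 24 h (adjusted p = 6.88e-05) and by 0.64 ± 0.09 at 48 h (adjusted p = 7.41e-07). The mean of Rfc4 at 20 µM was 10.96 at both times. Prim1, Rfc4 and Pcna rose in every fit that left out 1 array and in each other setting tried.

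Lig1, the ligase that joins Okazaki fragments, rose at 48 h only under the probe set with the higher signal. There the vehicle arrays read 9.03, 9.07, 8.70, 8.77 and 9.62 and the 20 µM arrays 9.44, 9.95, 9.75, 9.64 and 9.90, so that vehicle replicate 5 lay inside the treated range. The change was 0.70 ± 0.17 (adjusted p = 0.00175, limma; 0.37 ± 0.17 at 24 h, adjusted p = 0.131). In a fit of all probe sets that passed the filter, a second, dimmer probe set of Lig1 read -0.56 ± 0.30 (adjusted p = 0.184), and with the mean of both the call was lost, so the 2 probe sets disagree in sign. In that fit the dimmer one was also lower at 20 than at 0.8 µM at 24 h (-1.12 ± 0.30, adjusted p = 0.0108, limma). The brighter one stood at 0.36 ± 0.17 there (adjusted p = 0.218).

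Tipin, a partner of Timeless that stabilises the fork, differed from these genes in time and dose. At 24 h vehicle read 8.36, 8.91, 8.58, 9.39 and 9.35, 0.8 µM read 9.48, 9.65, 9.89, 9.65 and 9.43, and 20 µM read 9.24, 9.90, 9.54, 9.41 and 9.48. The 0.8 µM arrays all lay above vehicle, while 1 array at 20 µM lay inside its range. Tipin rose by 0.70 ± 0.18 at 0.8 µM (adjusted p = 0.0448, limma) and by 0.59 ± 0.18 at 20 µM (adjusted p = 0.0116), and both are set against the same 5 vehicle arrays. Without vehicle replicate 1, the lowest of them, the changes were 0.57 (adjusted p = 0.133) and 0.45 (adjusted p = 0.0566). The call at 0.8 µM ended in 18 of the 30 fits that left out 1 array, with changes of 0.57 to 0.75 and adjusted p of 0.0501 to 0.155. At 48 h it was at 0.18 ± 0.18 at 20 µM (adjusted p = 0.478).

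**Figure D3:**
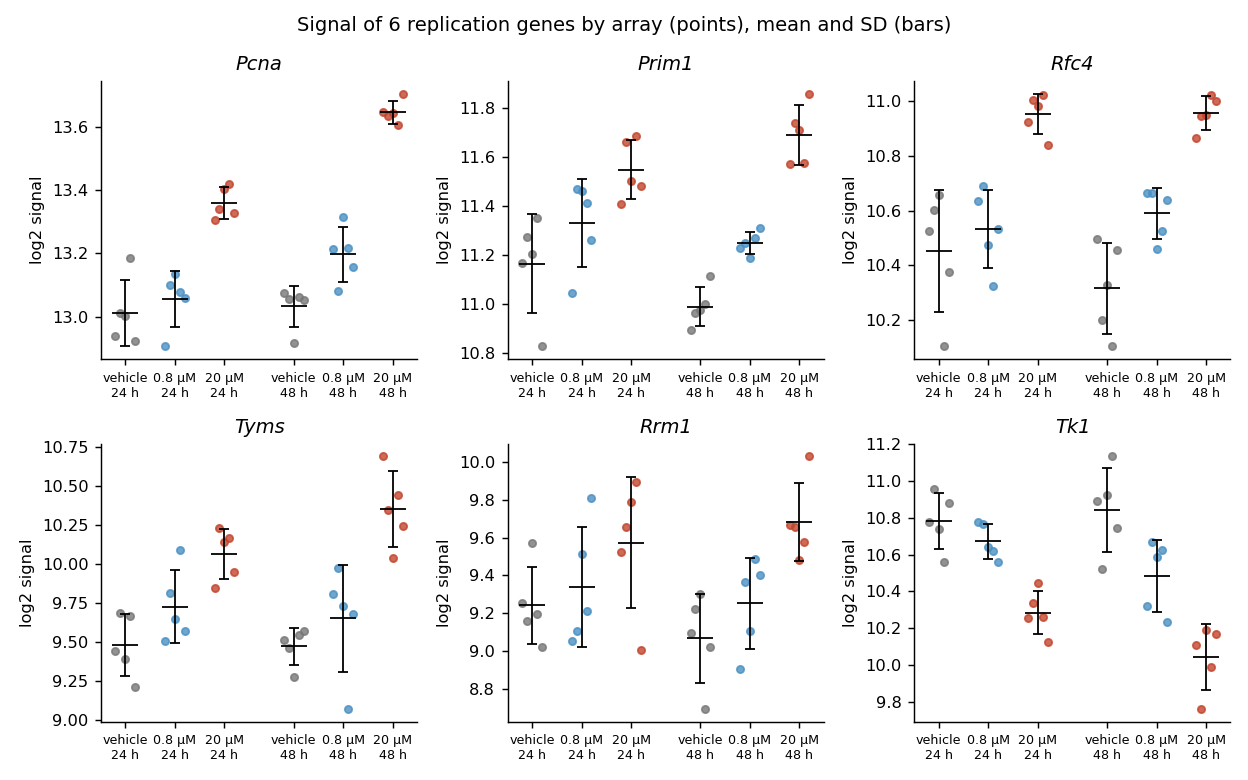
Log2 signal of Pcna, Prim1, Rfc4, Tyms, Rrm1 and Tk1 on each array (points) by dose and time, with the mean and SD of 5 arrays (bars); each panel has its own axis, which does not start at 0. In all 6 panels the 20 µM arrays at 48 h are apart from the vehicle arrays, above them for the first 5 genes and below them for Tk1.

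The 6 MCM genes code for the ring of the replicative helicase and did not move as 1 set. Mcm2, Mcm3, Mcm5 and Mcm7 passed no test against vehicle at 20 µM, with changes at 48 h of 0.24 ± 0.44, -0.07 ± 0.21, 0.05 ± 0.15 and -0.14 ± 0.13. Mcm4 and Mcm6 rose at 48 h, and both lay near the 40th percentile. Mcm4 read 8.16, 7.37, 7.79, 7.35 and 7.76 in vehicle and 8.27, 8.33, 8.12, 8.52 and 8.55 at 20 µM, where the top vehicle array lay inside the treated range (0.67 ± 0.24, adjusted p = 0.0300, limma). Mcm6 read 8.12, 7.30, 7.60, 4.21 and 7.56 in vehicle and 8.38, 7.99, 8.41, 8.30 and 8.01 at 20 µM (1.26 ± 0.48, adjusted p = 0.0418). One vehicle array of Mcm6, replicate 4, stood far below the rest.

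Both of these calls were fragile. Without vehicle replicate 4 the change of Mcm6 at 48 h was 0.57 (adjusted p = 0.237), and leaving out any one of the 5 arrays at 20 µM also ended the call, with changes of 1.21 to 1.31. For Mcm4 the call ended without vehicle replicate 2 or 4 or 20 µM replicate 4 or 5, with changes of 0.59 to 0.63. The same vehicle array bears on the fall of Mcm6 in vehicle from 24 to 48 h, from a mean of 8.40 ± 0.57, with 4 arrays between 8.17 and 8.82 and replicate 5 lower, to 6.96 ± 1.57 (SD, n = 5; -1.44 ± 0.48, adjusted p = 0.0439, limma). Without it the fall was -0.76 (adjusted p = 0.185), and the call also ended without vehicle replicate 1, 2, 3 or 4 at 24 h or replicate 2 at 48 h, at changes of -1.34 to -1.53. Fen1, the flap endonuclease of Okazaki fragments, stood at -0.01 ± 0.23 at 48 h (adjusted p = 0.986).

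In nucleotide supply, Tyms and Rrm1 rose at 48 h and Tk1 fell. Tyms, thymidylate synthase, makes dTMP anew from dUMP. It read 9.51, 9.46, 9.28, 9.54 and 9.57 in vehicle and 10.69, 10.34, 10.04, 10.44 and 10.24 at 20 µM at 48 h, with no overlap, and rose 1.84-fold (0.88 ± 0.14, adjusted p = 7.04e-06, limma). At 24 h it rose 1.50-fold (0.58 ± 0.14, adjusted p = 0.00222), from 9.44, 9.69, 9.39, 9.66 and 9.21 in vehicle to 9.84, 10.23, 10.14, 10.16 and 9.95, again with no overlap.

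Tk1, thymidine kinase, makes dTMP by salvage of thymidine. Its arrays read 10.89, 10.52, 10.92, 11.13 and 10.75 in vehicle and 10.11, 9.76, 10.19, 9.99 and 10.17 at 20 µM at 48 h, so that all 5 treated arrays were below all 5 controls. The same held at 24 h, with 10.78, 10.96, 10.74, 10.56 and 10.88 in vehicle and 10.25, 10.34, 10.45, 10.26 and 10.12 at 20 µM. Tk1 fell by 0.80 ± 0.11 at 48 h (1.74-fold lower, adjusted p = 2.27e-07, limma) and by 0.50 ± 0.11 at 24 h (1.41-fold, adjusted p = 0.000522). A second probe set of Tk1 also fell in the fit of all probe sets, by 0.40 ± 0.11 at 48 h (adjusted p = 0.00697) and by 0.32 ± 0.11 at 24 h (adjusted p = 0.0494).

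Rrm1, the large subunit of ribonucleotide reductase, read 9.09, 9.22, 9.30, 8.69 and 9.02 in vehicle and 9.67, 9.66, 9.48, 9.58 and 10.03 at 20 µM at 48 h, with no overlap. It rose 1.53-fold (0.62 ± 0.17, adjusted p = 0.00376, limma), and was at 0.33 ± 0.17 at 24 h (adjusted p = 0.159). Tyms and Tk1 at both times, and Rrm1 at 48 h, kept their calls in every fit with 1 array left out and under each of the other settings.

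Among the genes of licensing and G1, 4 of 7 rose at 48 h. Gmnn codes for geminin, which binds CDT1 and so blocks a second round of licensing. It read 6.62, 9.74, 8.71, 8.47 and 9.11 in vehicle and 10.28, 10.29, 10.11, 9.89 and 10.27 at 20 µM at 48 h. The treated arrays were close together and above all controls, and the controls were far more spread (SD 1.17 against 0.17). Gmnn rose 3.10-fold (1.63 ± 0.40, adjusted p = 0.00149, limma), and without vehicle replicate 1, its lowest array, the change was 1.15, still with an adjusted p under 0.05. At 24 h the groups were also apart (9.37 ± 0.28 in vehicle, 10.13 ± 0.12 at 20 µM, SD, n = 5), but the change of 0.76 ± 0.40 did not pass the test (adjusted p = 0.182). The means at 48 h were 8.53 in vehicle and 10.16 at 20 µM.

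Cdk4, the kinase that works with D cyclins in G1, read 12.64, 12.69, 12.16, 12.49 and 12.47 in vehicle and 12.77, 12.88, 12.82, 13.02 and 12.67 at 20 µM at 48 h, and the lowest treated array lay just inside the vehicle range. It rose by 0.34 ± 0.09 (adjusted p = 0.00458, limma). Ccne2, cyclin E2, read 9.50, 9.13, 9.28, 8.82 and 9.07 in vehicle and 9.72, 9.65, 9.49, 9.51 and 9.78 at 20 µM, and rose by 0.47 ± 0.15 (adjusted p = 0.0115). Only 1 vehicle array of Ccne2, replicate 1, reached the treated range.

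Ccne1, cyclin E1, was dim: 6.94, 5.85, 6.26, 6.77 and 7.85 in vehicle and 7.55, 8.01, 8.33, 8.45 and 7.67 at 20 µM at 48 h. Ccne1 exceeded the 40th percentile on 0 of 5 vehicle arrays at 24 h, on 0 of 5 at 48 h, and on 9 arrays in all. It thus entered the test only through treated arrays, so its test against vehicle is not independent of the filter. Ccne1 rose by 1.27 ± 0.47 (adjusted p = 0.0337, limma). The call ended without vehicle replicate 2, 3 or 4 or 20 µM replicate 2, 3 or 4, with changes of 1.04 to 1.28. Ccnd1, cyclin D1, which couples growth factor signals to the cycle, fell at 24 h, from 9.89, 9.84, 10.13, 9.77 and 9.85 to 9.11, 9.66, 9.55, 9.31 and 9.77. Its fall was -0.42 ± 0.14 (adjusted p = 0.0281, limma), with the top treated array at the level of the lowest control. Without 20 µM replicate 1 it was -0.32 (adjusted p = 0.110), without vehicle replicate 3 -0.36 (0.0849) and without 20 µM replicate 4 -0.37 (0.0751). At 48 h Ccnd1 stood at -0.10 ± 0.14 (adjusted p = 0.629), and E2f1 and Cdk2 passed no test at 20 µM at either time.

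**Figure D4:**
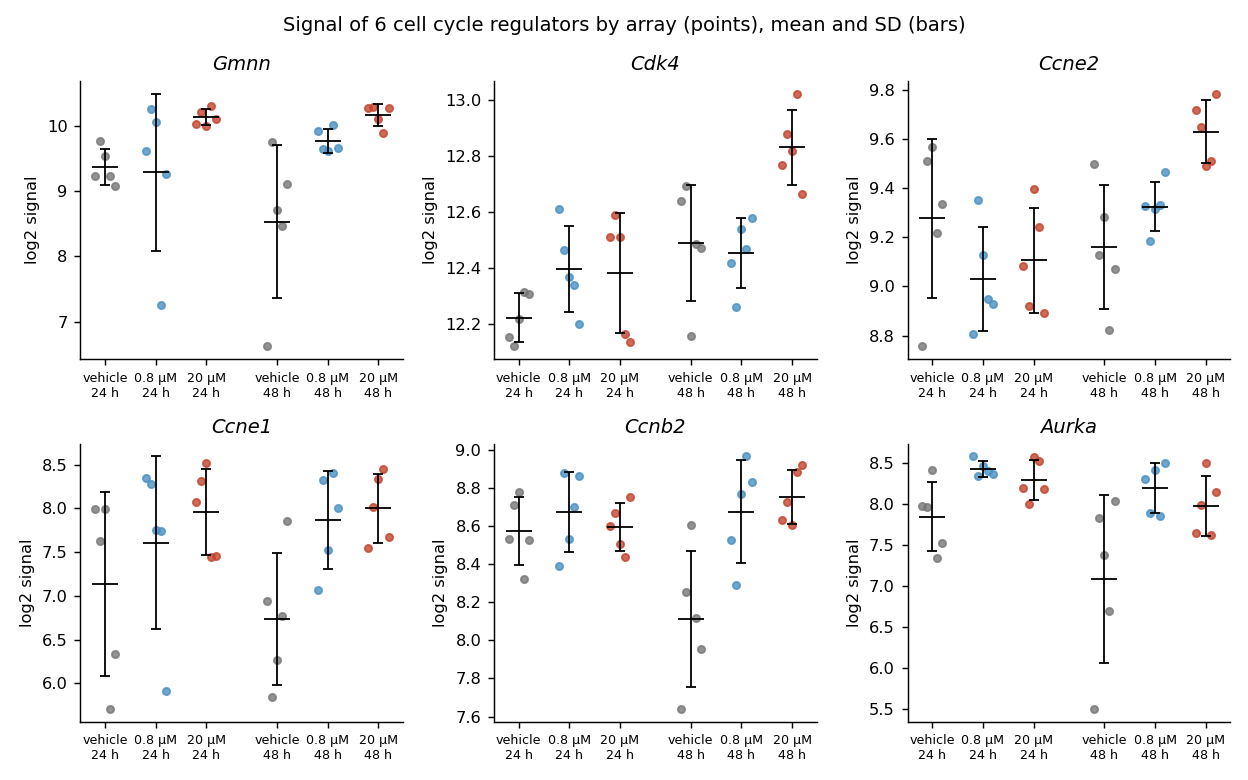
Log2 signal of Gmnn, Cdk4, Ccne2, Ccne1, Ccnb2 and Aurka on each array (points) by dose and time, with the mean and SD of 5 arrays (bars); each panel has its own axis, which does not start at 0. Single low vehicle arrays at 48 h are seen for Gmnn (6.62) and Aurka (5.50), and for Ccnb2, Ccne1 and Aurka the 0.8 µM arrays lie about as high as those at 20 µM.

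Of the 4 tested G2/M cyclins and kinases, 2 rose at 48 h and 0 at 24 h. Ccnb2, cyclin B2, read 7.64, 8.25, 8.60, 8.12 and 7.96 in vehicle and 8.63, 8.73, 8.61, 8.88 and 8.92 at 20 µM. The groups did not overlap, though the nearest arrays all but met, and the change was 0.64 ± 0.17 (adjusted p = 0.00363, limma). Aurka, the Aurora A kinase of centrosome and spindle assembly, read 5.50, 7.84, 7.38, 6.69 and 8.04 in vehicle and 7.65, 7.99, 8.51, 7.62 and 8.14 at 20 µM (0.89 ± 0.33, adjusted p = 0.0311), with overlap. Aurka lost its call without vehicle replicate 1 (0.50, adjusted p = 0.167) or 4 (0.79, 0.0778), or without 20 µM replicate 3 (0.76, 0.0911) or 5 (0.85, 0.0621). Ccnb1, cyclin B1, was at 0.21 ± 0.29 and Aurkb, Aurora B, at -0.36 ± 0.25 at 48 h, and neither passed. From 24 to 48 h the mean of Ccnb2 went from 8.57 to 8.11 in vehicle and from 8.59 to 8.75 at 20 µM. Aurka at 24 h ran from 7.35 to 8.42 in vehicle and from 8.01 to 8.58 at 20 µM. At 48 h it ran from 5.50 to 8.04 in vehicle and from 7.62 to 8.51 at 20 µM, so at 20 µM it lay no higher than at 24 h. For neither Ccnb2 nor Aurka did the 20 µM effect differ between the times at an adjusted p under 0.05 (limma).

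In the mitotic machinery, 0 of 5 tested genes changed at 20 µM against vehicle at 24 or 48 h by limma, and at an unadjusted p under 0.05 the number was also 0 at both times. At 48 h Kif11, the spindle motor, was at 0.05 ± 0.12, Bub1, a checkpoint kinase, at 0.06 ± 0.24, Birc5 (survivin) at 0.09 ± 0.47 and Ska3, which ties kinetochores to microtubules, at -0.18 ± 0.41. Cdc20 was at 0.42 ± 0.24 (adjusted p = 0.187). In the fit of all probe sets a dimmer one of Cdc20, above the 40th percentile on 12 arrays, read 2.04 ± 0.59 at 48 h (adjusted p = 0.00847), and another read -0.12 ± 0.45 (adjusted p = 0.894), so the 3 probe sets of this gene do not give 1 answer. Single arrays of Birc5 stood low, with 7.08 at 20 µM and 24 h, 7.18 at 0.8 µM and 24 h and 6.99 at 0.8 µM and 48 h. Its mean in vehicle at 24 h was 9.50 ± 0.42 (SD, n = 5).

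At 0.8 µM, 1 of the 31 genes changed at each time, Tipin at 24 h (above) and Ska3 at 48 h, against 0.826% and 3.33% of all tested genes. Arrays did not overlap with vehicle for Tipin at 24 h (1 of 31, 3.23%, against 2.23% of all genes), and for Pcna, Prim1 and Ska3 at 48 h (3 of 31, 9.68%, against 4.77%). Ska3 read 8.19, 7.87, 7.88, 8.02 and 8.42 in vehicle and 4.77, 5.08, 7.38, 7.04 and 7.74 at 0.8 µM, with 2 arrays far below the other 3. It fell by 1.67 ± 0.41 (adjusted p = 0.0184, limma), from near the 40th percentile to below it, and among the 26 brighter genes 0 changed in this comparison. Ska3 stood at 7.90 ± 0.23 at 20 µM (SD, n = 5). Without replicate 1 or 2 of 0.8 µM the change was -1.26 (adjusted p = 0.0587) or -1.34 (0.0654).

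The same vehicle arrays serve both doses, so the changes at 0.8 and 20 µM at 48 h are given side by side and not as a relation. They were 0.16 ± 0.05 and 0.61 ± 0.05 for Pcna, 0.26 ± 0.08 and 0.70 ± 0.08 for Prim1, 0.27 ± 0.09 and 0.64 ± 0.09 for Rfc4, 0.18 ± 0.14 and 0.88 ± 0.14 for Tyms, and -0.36 ± 0.11 and -0.80 ± 0.11 for Tk1. At 0.8 µM none of these 5 passed, with adjusted p of 0.0663, 0.0870, 0.0919, 0.611 and 0.0532 (limma). Other genes were about as far from vehicle at 0.8 µM as at 20 µM: Gmnn (1.24 ± 0.40 and 1.63 ± 0.40), Ccne1 (1.13 ± 0.47 and 1.27 ± 0.47), Aurka (1.11 ± 0.33 and 0.89 ± 0.33) and Ccnb2 (0.56 ± 0.17 and 0.64 ± 0.17). The values at 0.8 µM for these 4 did not pass either, with adjusted p of 0.0826, 0.212, 0.0529 and 0.0642.

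**Figure D5:**
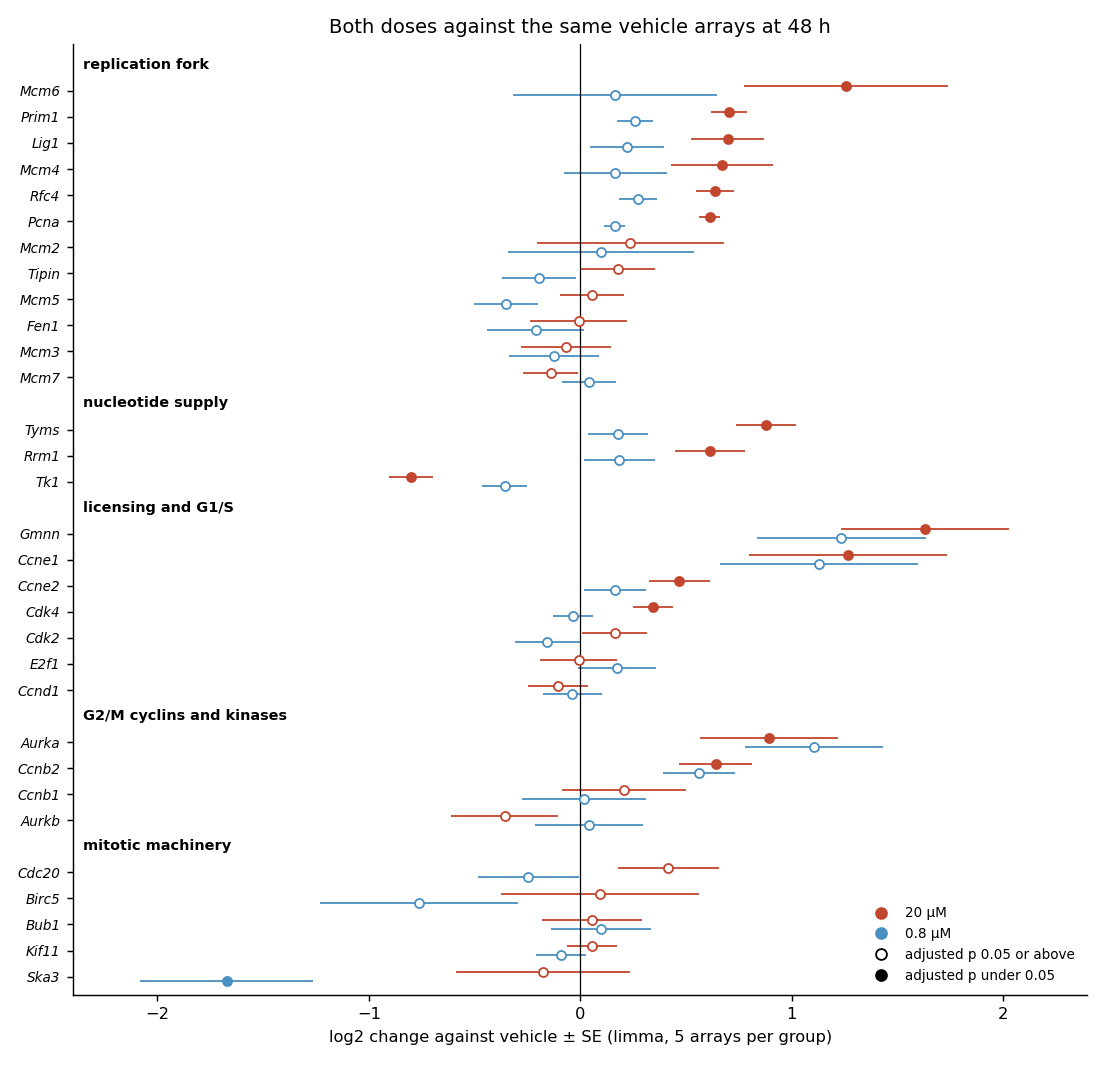
Log2 change at 48 h of 0.8 µM (blue) and 20 µM (red) against the same 5 vehicle arrays, with SE (limma), for the 31 tested genes by role; filled points have an adjusted p under 0.05. Pcna, Prim1, Rfc4 and Tyms lie further right at 20 µM, Tk1 further left, and Gmnn, Ccne1, Aurka and Ccnb2 at similar values under both doses, while Ska3 is the 1 filled point at 0.8 µM (-1.67).

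The doses were then compared with each other, without vehicle. At 48 h 10 of the 31 genes differed (32.3%, against 26.9% of all genes), 9 higher at 20 µM (29%, against 14.5%) and Tk1 lower (3.23%, against 12.4%). Of the 26 brighter genes 9 differed (34.6%), a count given without the share of all such genes. Pcna (0.45 ± 0.05, adjusted p = 2.05e-08, limma), Prim1 (0.44 ± 0.08, 0.000127), Tyms (0.70 ± 0.14, 0.000254), Rfc4 (0.37 ± 0.09, 0.00214), Cdk4 (0.38 ± 0.09, 0.00254) and Tk1 (-0.44 ± 0.11, 0.00156) kept this call in all fits with 1 array left out. The calls of Cdc20 (0.66 ± 0.24, adjusted p = 0.0364), Lig1 (0.48 ± 0.17, 0.0397) and Mcm5 (0.41 ± 0.15, 0.0445) each ended in 6 of the 30 such fits. For Cdc20 these left out 0.8 µM replicate 1, 3 or 5 or 20 µM replicate 1, 3 or 4, for Lig1 0.8 µM replicate 1, 2 or 4 or 20 µM replicate 2, 3 or 5, and for Mcm5 0.8 µM replicate 1, 3 or 5 or 20 µM replicate 1, 2 or 3. The arrays of Cdc20 read 7.77, 8.33, 7.66, 8.12 and 7.61 at 0.8 µM and 8.77, 8.46, 8.53, 8.64 and 8.40 at 20 µM, with no overlap. Ska3 was higher at 20 µM by 1.50 ± 0.41 (adjusted p = 0.00585).

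The 0.8 µM arrays at 48 h, for comparison with those at 20 µM given above, read 13.21, 13.08, 13.31, 13.22 and 13.16 for Pcna. Prim1 read 11.23, 11.25, 11.19, 11.27 and 11.31, and Rfc4 read 10.66, 10.66, 10.46, 10.52 and 10.64. All these lay below the lowest array of the gene at 20 µM. Tyms, at 9.81, 9.97, 9.73, 9.07 and 9.68, did too. Cdk4 read 12.42, 12.26, 12.54, 12.47 and 12.58, and Lig1 reached 9.41 at most, again without overlap. Tk1 read 10.32, 10.67, 10.59, 10.62 and 10.23, all above the arrays at 20 µM, while Mcm5, at 8.54, 8.84, 8.58, 8.96 and 8.70 against 9.51, 9.22, 9.14, 8.83 and 8.97 at 20 µM, overlapped.

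At 48 h Ccnb2 (0.08 ± 0.17), Ccne1 (0.14 ± 0.47), Aurka (-0.21 ± 0.33) and Gmnn (0.40 ± 0.40) passed no test of 20 against 0.8 µM, which does not show that the doses act alike on them. At 24 h 3 of the 31 differed between the doses (15.6% of all genes did): Pcna by 0.30 ± 0.05 (adjusted p = 4.90e-05, limma), Rfc4 by 0.42 ± 0.09 (0.00102) and Tk1 by -0.39 ± 0.11 (0.00970). Their arrays at 0.8 µM and 24 h did not overlap those at 20 µM, and read 12.91, 13.10, 13.14, 13.08 and 13.06 for Pcna, 10.63, 10.69, 10.47, 10.33 and 10.53 for Rfc4 and 10.78, 10.77, 10.64, 10.62 and 10.56 for Tk1.

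With time in culture, few of the genes changed in vehicle or at 0.8 µM, and at 20 µM about the share of all genes did. In vehicle 1 of 31 changed between 24 and 48 h (3.23%), the dim Mcm6 (described above), against 13.2% of all genes. Of the 26 brighter genes 0 changed, with no share of all such genes given. At 0.8 µM 1 of 31 changed (3.23%), against 6.2% of all genes in either direction. This was Mcm5, which fell by 0.59 ± 0.15 (adjusted p = 0.0129, limma), from 9.36, 9.22, 9.32, 9.32 and 9.37 to 8.54, 8.84, 8.58, 8.96 and 8.70, with no overlap. At 20 µM 3 of 31 changed from 24 to 48 h (9.68%), near the 10.4% of all genes that changed in either direction. All 3 rose: Pcna by 0.29 ± 0.05 (adjusted p = 0.000147, limma), Cdk4 by 0.45 ± 0.09 (0.00127) and Ccne2 by 0.52 ± 0.15 (0.0165). At 20 µM and 24 h Cdk4 had read 12.51, 12.59, 12.51, 12.16 and 12.14 and Ccne2 9.08, 8.92, 9.39, 9.24 and 8.89, all below their arrays at 48 h. Ccne2 lost this call without 20 µM replicate 5 at 24 h (0.47, adjusted p = 0.0542).

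Other genes of the same processes, from lists written down for comparison, moved in both directions, and the lists were not tested against the 31. The counts of this and the following lists at 20 µM stand beside 13.4% of all tested genes that rose and 10.4% that fell at 24 h, and 20.3% and 14.9% at 48 h. Of 34 further tested replication genes 5 rose and 2 fell at 24 h at 20 µM, and 3 rose and 5 fell at 48 h, with a median log2 change of 0.09 at 48 h against 0.04 for all genes. Orc3 of the origin recognition complex rose at both times (0.31 ± 0.08 and 0.45 ± 0.08, adjusted p = 0.00481 and 5.36e-05, limma). Shmt1, which supplies folate one-carbon units to thymidylate synthesis, fell at both (-0.34 ± 0.07 and -0.55 ± 0.07, adjusted p = 0.000722 and 3.05e-07). At 24 h Rpa2, of the single-strand binding protein, rose by 0.66 ± 0.19 and Gins4, of the helicase complex, by 0.38 ± 0.11. At 48 h Mcm10, an initiation factor, fell (-0.54 ± 0.19), as did Dctpp1, a dCTP pyrophosphatase (-0.35 ± 0.12).

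Of 34 further tested genes of mitosis, 6 rose and 3 fell at 24 h and 8 rose and 5 fell at 48 h, with a median of 0.00 at 48 h. The paired cyclin-dependent kinase subunits moved apart: Cks2 rose at 24 and 48 h (0.34 ± 0.07 and 0.72 ± 0.07, adjusted p = 0.000573 and 1.40e-09, limma) and Cks1b fell (-0.22 ± 0.07 and -0.64 ± 0.07, adjusted p = 0.0153 and 4.47e-09). Stmn1, the microtubule destabiliser stathmin, rose at 48 h by 0.97 ± 0.18 (adjusted p = 8.46e-05), and Smc4 of condensin, a dim gene, fell by 0.85 ± 0.32 (adjusted p = 0.0363). Spc24 of the kinetochore fell at 24 and 48 h (-0.99 ± 0.14 and -0.55 ± 0.14, adjusted p = 2.28e-06 and 0.00227), as did Ccnf, cyclin F (-0.45 ± 0.15 and -0.43 ± 0.15). The kinetochore gene Zwint rose at both times (0.41 ± 0.06 and 0.44 ± 0.06). Cdca8 of the chromosomal passenger complex, dim, rose at 24 h by 1.61 ± 0.57 (adjusted p = 0.0372).

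Among 25 tested genes listed as brakes of the cycle, 5 rose and 2 fell at 24 h and 6 rose and 4 fell at 48 h. Mdm2 is counted with them although it acts against p53. Ccng1 and Mdm2, both targets of p53, rose: Ccng1, cyclin G1, by 0.56 ± 0.06 and 0.80 ± 0.06 (adjusted p = 5.19e-09 and 6.13e-13, limma), and Mdm2, which marks p53 for degradation, by 0.44 ± 0.06 and 0.63 ± 0.06 (adjusted p = 1.01e-06 and 3.43e-10). Cdkn1a, the p21 inhibitor and also a p53 target, stood at -0.10 ± 0.09 and 0.02 ± 0.09 (adjusted p = 0.496 and 0.896). Cdkn1b, the p27 inhibitor, stood at -0.11 ± 0.06 and 0.06 ± 0.06. E2f5, an E2F of the repressor class, rose by 0.57 ± 0.09 and 0.73 ± 0.09, and Lin37 of the DREAM repressor complex by 0.43 ± 0.11 at 24 h. Cdkn2b, the p15 inhibitor, dim, fell by 1.19 ± 0.47 at 48 h (adjusted p = 0.0474).

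Of 33 tested genes of growth signals 3 rose and 7 fell at each time. Ccn2, a target of the YAP coactivator, fell at both times (-1.31 ± 0.07 and -2.14 ± 0.07, adjusted p = 1.24e-14 and 1.18e-20, limma), and so did Egfr, the receptor of epidermal growth factor (-0.56 ± 0.07 and -0.75 ± 0.07). Igf1, a growth factor made by the liver, fell at both times (-0.47 ± 0.05 and -0.74 ± 0.05), and Fgfr4, a receptor of FGF signals from the gut, at 24 h (-0.66 ± 0.20). Atf3, an early stress factor, rose by 0.55 ± 0.14 and 1.14 ± 0.14. Myc rose at 24 h (0.28 ± 0.09, adjusted p = 0.0153) and had a mean of 12.25 in both groups at 48 h (adjusted p = 0.985). Ccnd2, Ccnd3 and Cdk6, the other D cyclins and their kinase, passed no test at 20 µM, with changes from -0.25 to 0.22.

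Cell type markers moved at 20 µM beside these genes, and their part in the results was not tested. Of 17 hepatocyte markers 0 rose and 8 fell at 48 h, Cyp2e1 (-2.48 ± 0.09), Pck1 (-1.19 ± 0.20), Cebpa (-1.13 ± 0.11) and Asgr1 (-0.66 ± 0.05) the most, and the summed signal of the list ran from 767600 to 942500 in vehicle and from 716000 to 869400 at 20 µM. At 24 h 0 rose and 5 fell, led by Cebpa (-0.77 ± 0.11), Cyp2e1 (-0.70 ± 0.09), Apob (-0.52 ± 0.08) and Asgr1 (-0.38 ± 0.05). Of 11 markers of Kupffer and immune cells Coro1a (2.35 ± 0.62, dim) and Cd68 (1.44 ± 0.13), which is also a lysosomal protein, rose at 48 h and Cd14 (-0.64 ± 0.05) and C1qa (-0.33 ± 0.12) fell. The summed linear signal of that list was lower at 20 µM, from 15670 to 17240 against 20350 to 22490 in vehicle. Cd14, the brightest of the list (mean log2 signal 13.74, next Cd68 at 10.49), makes up most of that sum, so it does not describe the other markers. At 24 h Cd14 fell (-0.19 ± 0.05).

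Of 8 tested stellate or fibroblast markers and 6 endothelial markers 0 changed at either time by limma, with 1 endothelial marker at an unadjusted p under 0.05 at each time and 1 stellate marker at 24 h. The summed signal of the stellate list was 4544 to 5516 at 20 µM and 4615 to 5659 in vehicle at 48 h. Among 4 tested bile duct and progenitor markers Prom1 rose by 0.74 ± 0.16 at 48 h and Krt19, dim, fell by 1.28 ± 0.35 at 24 h.

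Of the 12 genes that rose at 20 µM and 48 h and have a window, 4 held E2F-type letters (Gmnn, Lig1, Mcm6 and Tyms), and so did 4 of the 12 tested genes that passed no test against vehicle at 20 µM (Mcm2, Mcm3, Mcm5 and Mcm7). CHR letters were in 4 of the former and 6 of the latter. Of the 7 genes that rose at 48 h with no overlap of arrays, Gmnn and Tyms held E2F-type letters and Pcna, Prim1, Rfc4, Rrm1 and Ccnb2 did not. No difference between these sets was tested.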

How the data were processed

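Per the submitters' processing notes the arrays were summarised with MAS5 (version not stated), and the authors deposited linear signal intensity per probe set. The trimmed mean of each array was close to 1500.6. The table held 31099 probe sets, of which 20826 had 1 gene symbol. From these intensity values, floored at 16, log2 signals were taken with no further normalization. Groups came from the dose and time entries of the labels. Tests used limma 3.58.1 in R 4.3.3 (lmFit, eBayes with trend) on 1 probe set for each gene, and ± is the SE unless SD is written. Any member with an adjusted p under 0.05 in a comparison is given with its change and its arrays (a few groups as ranges), members below the filter by range, and up to 4 changed genes of each other list with the largest change, besides 8 fixed genes (Cdkn1a, Cdkn1b, Ccng1, Mdm2, Myc, Ccnd2, Ccnd3 and Cdk6). The members and lists were chosen with earlier results of these data known. The procedure was tested on simulated data. Replicate numbers follow the deposit order and pair nothing. Protein was not measured. The number of arrays limits the precision.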

Additional observations from a re-analysis of the deposited data

Results flagged for a closer look

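In 3 of 120 groups of 5 arrays (20 genes in 6 groups) 1 array stood apart from the others by Dixon's criterion, where chance gives about 1 in 20. Birc5, with the low arrays described above, was not among the 20 genes examined. The Mcm6 signal of vehicle replicate 4 at 48 h was 4.21, and the nearest of the group was 7.30. Ccne1 was at 5.91 in replicate 5 of 0.8 µM at 24 h, below the nearest at 7.75. Pcna was at 12.92 in vehicle replicate 3 at 48 h, with the nearest at 13.05.

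The effect of 20 µM on Pcna was larger at 48 h than at 24 h by 0.27 on the log2 scale (interaction contrast in limma, adjusted p = 0.026), as described with the gene.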

How the results depend on the processing

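Of 43 calls on these genes over all comparisons, 0 reversed, 29 were kept in all 30 fits that left out 1 array and 25 under all 12 other settings (11 where a filter at the 60th percentile removed the gene). Left-out arrays gave 6 to 9 genes at 20 µM and 24 h, 11 to 15 at 48 h, 3 to 4 and 7 to 12 between the doses at 24 and 48 h, 2 to 3 for time at 20 µM, 1 to 2 at 0.8 µM and 0 to 3 in vehicle, 0 to 1 and 0 to 4 at 0.8 µM against vehicle at 24 and 48 h, and 0 to 2 for the difference of effects. At 20 µM and 48 h the filter at the 60th percentile gave 10 genes, fits of only the groups compared 12 and an adjusted p under 0.01 also 10. The 1 gene of 0.8 µM at 24 h became 0 with no filter, median centring, quantile normalization, no trend, only the groups compared, or an adjusted p under 0.01. The 1 gene at 48 h became 2 with a floor of 64, the array set as a block, or the mean of probe sets, 3 without a trend, 5 with quantile normalization or array weights, and 0 at an adjusted p under 0.01. Ska3 itself also lost its call in fits of only the groups compared. The change of vehicle with time became 0 genes with no filter, only the groups compared, or the stricter threshold, and 2 with array weights. Without a trend it became 2 genes, and Mcm6 was not among them. Time at 0.8 µM became 0 at the stricter threshold. The difference of effects became 0 with median centring or the stricter threshold and 2 with array weights. The causes were not tested. The labels pair no wells, and the replicate numbers, which follow the deposit order, run with the sets of 6 consecutive array numbers. With that array set as the replicate block the count was kept in every comparison other than 0.8 µM against vehicle at 48 h. Signals near the 40th percentile limit Mcm4, Mcm6, Ccne1, Aurka and Ska3.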
